A study of Rattus norvegicus with 27 samples.

Results

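The comparison described here sets rat oligodendrocyte precursor cells (OPCs) kept for 96 h in triiodothyronine (T3), the active thyroid hormone, against the same donors' OPCs in platelet-derived growth factor (PDGF) at 0 h. Its members were all 14218 genes that the array names by a single symbol, each read from its brightest probe set over the series, on 6 of the 27 Affymetrix Rat Genome arrays: 3 titled PDGF_0 and 3 titled T3_96h, paired by donor number. The OPCs were taken from the cerebral cortex of Sprague Dawley rat pups in the first postnatal week, selected on A2B5 magnetic beads and expanded in PDGF-AA with Noggin, a bone morphogenetic protein (BMP) antagonist added to limit astrocyte formation. The PDGF cells were still in that expansion medium, and the labels give the T3 condition as withdrawal and T3, which was read here as withdrawal of PDGF. No PDGF array was made at 96 h, so T3, that withdrawal and time in culture cannot be told apart in any value below. The remaining 21 arrays hold T3 at 8, 24 and 48 h and T3 with interferon gamma at 4 times, again with 3 donors in each group. The labels do not say whether a donor was 1 animal or several. The p-values and standard errors measure the spread left after each group's mean and each donor's shift were removed. That spread was pooled over all 27 arrays, and it covers these 3 donors only.

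OPCs divide in response to PDGF through its receptor PDGFRα, and leave the cell cycle when PDGF is withdrawn or thyroid hormone is supplied. T3 acts through nuclear receptors that sit on DNA and switch target genes on when the hormone binds. Cells that differentiate become oligodendrocytes, whose wrapped membrane, myelin, consists mostly of lipid with a small set of abundant proteins. The labelled cell type was checked on 2 of its defining markers. Pdgfra, the PDGF receptor, read 12.68, 12.77 and 12.77 on the log2 scale in the PDGF cells of donors 1, 2 and 3, and Olig1, an oligodendrocyte lineage factor, read 12.52, 12.81 and 12.68. All 6 values lay far above 5.993, the median of all values in the table. Olig2 and Cspg4, other OPC markers whose values are given below, read lower in PDGF. The astrocyte, neuron and microglia marker lists, also given below, had PDGF medians above 5.993 as well.

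Values are log2 signals after robust multi-array averaging, a change is the T3 96 h value minus the PDGF value, and a gene was called when its Benjamini-Hochberg adjusted p from limma was under 0.05 over all 14218 genes. By that rule 3702 genes (26.0% of those tested) rose and 4511 (31.7%) fell, so that 57.8% of all genes changed. A list of genes therefore has to be read against those shares. At least a 2-fold change was reached by 1181 genes that rose (8.31%) and 1594 that fell (11.2%). At least 16-fold was reached by 77 and 64 genes, and at least 32-fold by 29 and 14. The 3 T3 arrays lay outside the range of the 3 PDGF arrays for 1177 of the 1181 and for 1589 of the 1594. Those genes were picked for a change on the same arrays, so these counts add no support to the calls. Over all 14218 genes, every T3 array lay above every PDGF array in 3978 and below in 4651. Of the 6005 genes not called, 5941 had a 95% interval that lay within 2-fold in both directions. Of the 1181, 304 (25.7%) had a PDGF mean under the median of all values. No detection calls were used, so a change from or to such a low signal is a difference of normalized signals and no exact fold of RNA. The median change of all genes was 0.01 and the median standard error (SE) 0.11. The first principal component of the 6 arrays held 92% of their variance and separated the groups.

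**Figure D1:**
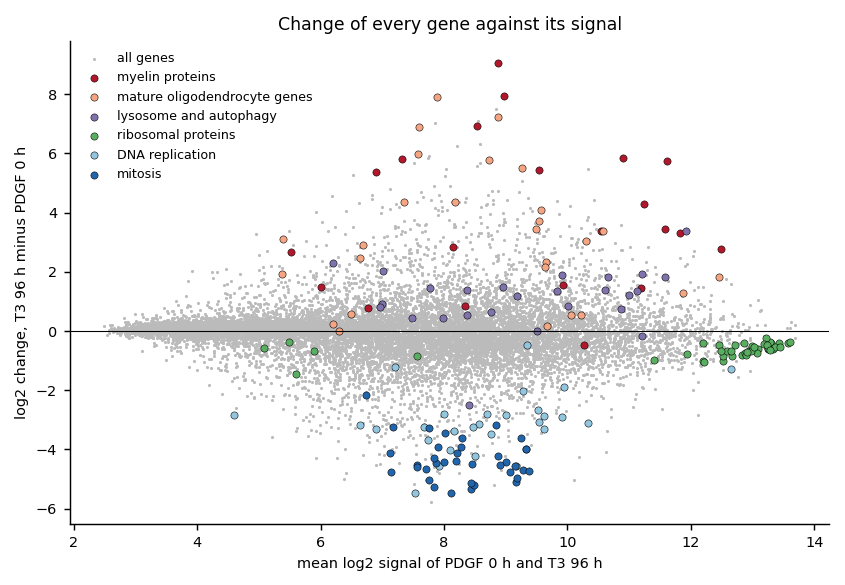
Change of every gene (vertical axis, log2, T3 96 h minus PDGF 0 h) against its mean log2 signal in both groups (horizontal axis). Each point is 1 gene, with 6 gene lists in colour; the myelin proteins reach 9.06 at the top and the mitosis genes -5.48 at the bottom, while most ribosomal proteins lie just under 0 at the right.

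Genes for the proteins of myelin rose almost without exception. Of 24 listed, 21 had a probe set, and 20 of these rose and 1 fell, with a median change of 3.38 beside 0.01 for all genes. The median was 3.52, 3.29 and 3.33 in donors 1, 2 and 3. The signal summed over the 21 probe sets ran from 10111 to 10240 in the PDGF arrays and from 123009 to 132724 at T3 96 h.

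Mobp, an abundant protein of compact myelin, gave the largest rise of all genes. Its log2 signal was 4.61, 4.34 and 4.08 in the PDGF cells of donors 1, 2 and 3 and 13.55, 13.21 and 13.45 at T3 96 h, so the groups lay far apart. The change was 9.06 ± 0.30 (SE, n = 3 donors; limma, adjusted p = 1.26e-15), measured from a PDGF signal under the table's median. Mag, the adhesion protein of the innermost myelin layer, read 4.99, 5.08 and 4.93 in PDGF and 13.04, 12.77 and 13.01 in T3, a change of 7.94 ± 0.21 (limma, adjusted p = 1.01e-16). Mog, a glycoprotein of the outermost myelin surface, went from 5.25, 5.10 and 4.86 to 11.91, 11.96 and 12.13, a change of 6.93 ± 0.37. For all 3 genes every T3 array exceeded every PDGF array by several log2 units.

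Mbp, which holds the inner faces of the myelin membrane together, already read 8.47, 8.84 and 8.93 in PDGF and 14.49, 14.48 and 14.46 in T3. The T3 values sat at the top of the table's range, whose highest value was 14.491, so the probe set may not show any further rise. Its change was 5.73 ± 0.25 there, and 7.8 and 3.02 on its other probe sets. Cnp, an enzyme of non-compact myelin, rose in all 3 donors, a change of 2.77 ± 0.15, and 4.1 on its other probe set. Cldn11, the tight junction protein of myelin, rose by 5.83 ± 0.31, and by 7.85 on its other probe set. Mal, a membrane sorting protein, rose by 5.82 ± 0.20. Opalin, a late oligodendrocyte membrane protein, read 10.80 in the T3 cells of donor 1 and 9.0 in both others, against 4.18, 4.31 and 4.16 in PDGF. The member that went the other way was Pmp22, best known from myelin of peripheral nerve. It read 10.45, 10.57 and 10.49 in PDGF and 9.73, 10.24 and 10.10 in T3, a fall by 0.48 ± 0.14 with no overlap between the groups (limma, adjusted p = 0.00497). Without donor 3 its adjusted p was 0.0533.

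**Figure D2:**
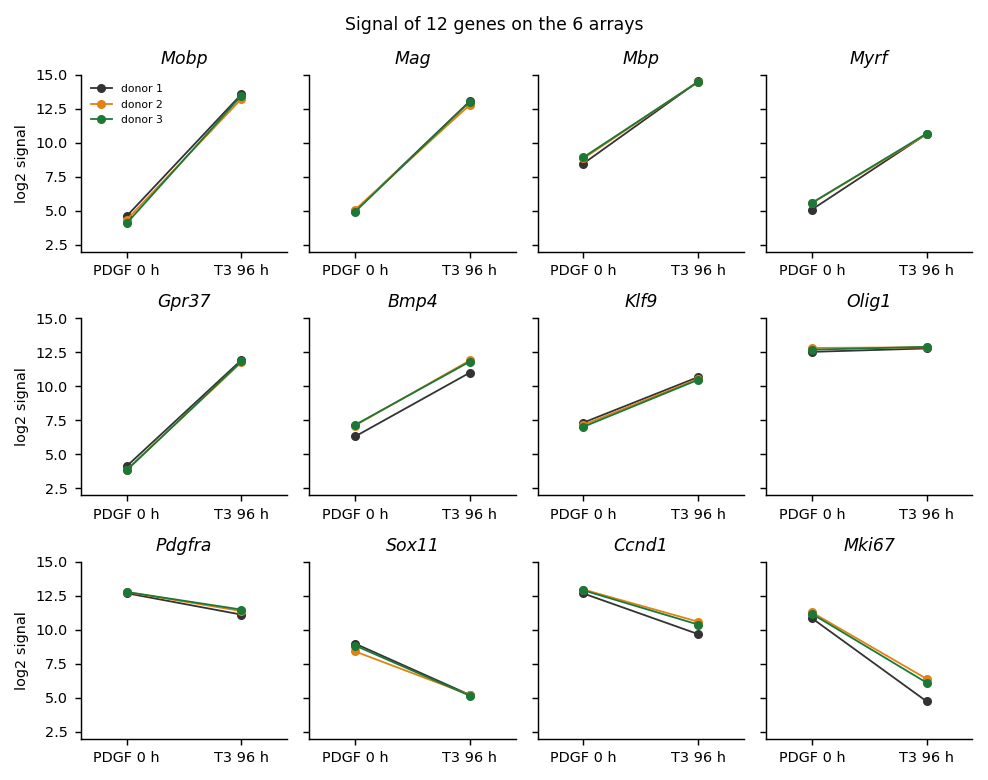
Log2 signal (vertical axis) of 12 genes in PDGF at 0 h and T3 at 96 h (horizontal axis), with 1 line per donor. Mobp rose from 4.61, 4.34 and 4.08 to 13.55, 13.21 and 13.45, Olig1 lay between 12.52 and 12.89, and Mki67 fell furthest in donor 1.

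Other genes of mature oligodendrocytes moved in the same direction: 27 of 33 listed had a probe set, 24 rose, none fell, and the median change was 3.03. Gpr37, an orphan receptor of differentiating oligodendrocytes, read 4.13, 3.88 and 3.83 in PDGF and 11.92, 11.75 and 11.82 in T3. That is a change of 7.89 ± 0.32 (limma, adjusted p = 2.33e-14). Apod, a lipid-binding apolipoprotein, went from 5.61, 4.84 and 5.35 to 12.48, 12.45 and 12.52. Ptgds, the enzyme that makes prostaglandin D2, went from 4.21, 4.20 and 4.03 to 11.29, 10.90 and 10.91. Aspa, which splits N-acetylaspartate, rose by 5.77 ± 0.25, and Ppp1r14a, a phosphatase inhibitor, by 5.98 ± 0.39. The 3 members that were not called were Efnb3 (0.01, 95% interval of the change within 2-fold), Pde4b (0.16) and Tmem63a (0.22).

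Among the 20 largest rises over all genes were several outside both lists. Kndc1, a guanine nucleotide exchange factor studied in neurons, went from 4.23, 4.42 and 4.36 to 11.45, 11.26 and 11.41. Dct, the dopachrome tautomerase of melanin synthesis, went from 5.24, 4.90 and 4.89 to 12.14, 12.12 and 12.03. Rpe65, the retinoid isomerase of the retinal pigment epithelium, went from 4.87, 4.62 and 4.60 to 10.02, 10.38 and 10.65. The pigment cell genes Dct and Rpe65 thus stood among the strongest rises, at 7.09 ± 0.37 and 5.66 ± 0.31. Lpar1, a receptor for lysophosphatidic acid, rose by 6.31 ± 0.29, and Gpd1, the glycerol 3-phosphate dehydrogenase, by 6.24 ± 0.20. Pls1, an actin-bundling plastin, rose by 5.83 ± 0.24, Abca8a, a lipid transporter, by 5.90 ± 0.31, and Kcne4, a potassium channel subunit, by 5.68 ± 0.28.

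The scaffold under the myelin membrane changed member by member. Of 16 measured septins, tubulin-binding proteins and motors, 9 rose and 3 fell, with a median of 0.63, and 5 fell without donor 1 or with array weights. Septin4 rose from 4.83, 5.18 and 5.25 to 12.70, 12.50 and 12.60, a change of 7.51 ± 0.24. Septin9 fell from 8.76, 9.57 and 9.49 to 6.60, 6.94 and 6.91, a change of -2.45 ± 0.15, and Septin11 fell by 1.66 ± 0.19. The other Septin11 probe set was not called (0.09). Septins assemble into mixed filaments, and these data hold members that changed in opposite directions with no overlap between the groups. Tppp, which promotes tubulin polymerization, rose from 7.56, 7.63 and 7.61 to 13.14, 13.10 and 12.97. Kif21a, a kinesin motor, rose by 4.29 ± 0.23. Tppp3 rose by 2.63 ± 0.27, with 9.16 in donor 1 at T3 96 h against 7.57 and 7.81 in the others.

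Of the genes for myelin lipids, those for sphingolipids and very long chains gave the largest rises. In the list of fatty acid and sphingolipid synthesis, 15 of 26 measured genes rose and 4 fell, with a median of 0.45. Ugt8, which makes galactosylceramide, the characteristic lipid of myelin, went from 7.49, 6.04 and 6.65 to 11.85, 11.63 and 11.93, a change of 5.08 ± 0.27. The other Ugt8 probe set was not called (-0.02). Fa2h, which hydroxylates the fatty acids of galactosylceramide, rose by 3.58 ± 0.21, Elovl1, an elongase of very long chains, by 2.77 ± 0.14, and Cers2, a ceramide synthase for such chains, by 2.17 ± 0.14. The transporter Abca2 rose by 3.33 ± 0.19. The general lipogenic enzymes Fasn and Acly were not called, with changes of -0.05 ± 0.20 and -0.07 ± 0.12. Against the majority, the ceramide synthase Cers6 fell by 0.91 ± 0.26 and the acyl-CoA synthetase Acsl4 by 0.63 ± 0.16. Cers4 fell by 0.61 ± 0.17 and was no longer called without donor 3 (adjusted p = 0.0753). Acaca fell by 0.50 ± 0.18, with an adjusted p of 0.0933 with no donor block, 0.151 without donor 2 and 0.126 without donor 3.

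Sterol synthesis, which supplies myelin cholesterol, rose modestly at 96 h: 12 of 22 measured genes rose and 1 fell, the median was 0.45, and only 1 gene reached 2-fold. That gene was Sc5d, a late enzyme of the pathway, at 10.16, 9.90 and 9.93 in PDGF and 11.38, 10.80 and 10.92 in T3 (1.04 ± 0.16). Cyp51 rose by 0.97 ± 0.17 and Tm7sf2 by 0.99 ± 0.21. The group means passed through a higher level before 96 h. The median of the 22 group means was 9.87 in PDGF, 10.10 at 8 h, 10.59 at 24 h, 11.18 at 48 h and 10.24 at 96 h. In the direct contrast of T3 96 h with T3 48 h, in which 14.3% of all genes rose and 18.4% fell, 17 of the 22 fell and 1 rose. Over all genes 2035 rose and 2623 fell in that contrast, and 1170 and 1448 without donor 3. Tm7sf2 fell by 1.42 in that interval (limma, adjusted p = 1.81e-05). Srebf2, the factor that drives the pathway, changed by -0.27 ± 0.13 from PDGF to 96 h and was not called, although it was called lower without donor 1 (-0.36, limma, adjusted p = 0.016) and with array weights (-0.32, 0.00643). It fell by 0.72 between 48 and 96 h. The 1 member that fell over the whole comparison was the cholesterol carrier Stard4 (-0.50 ± 0.18, adjusted p = 0.024), whose adjusted p was 0.0932 after a further quantile normalization, 0.178 without donor 2 and 0.12 without donor 3.

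Genes of thyroid hormone transport and action rose in larger part: of 17 measured, 10 rose and 4 fell, with a median of 0.31. Klf9, a zinc finger factor induced directly by T3, read 7.33, 7.16 and 7.02 in PDGF and 10.67, 10.54 and 10.47 in T3, a change of 3.39 ± 0.14 (limma, adjusted p = 3.84e-14). Hr, a corepressor and classical T3 target in rat brain, went from 6.22, 6.30 and 6.48 to 8.52, 8.58 and 8.65. Crym, a cytosolic T3-binding protein, rose by 3.98 ± 0.21. Both hormone receptor genes rose on their brightest probe sets: Thrb by 2.83 ± 0.28 and Thra by 1.93 ± 0.08. The other Thra probe sets changed by -0.0 and 0.13 and were not called. Those of Thrb changed by 1.89, 0.77 and 0.05, the last not called. Nrgn, a postsynaptic calmodulin-binding protein and a T3-responsive gene of neurons, fell from 8.88, 9.15 and 9.15 to 6.33, 6.65 and 6.79. The thyroxine transporter gene Slco1c1 fell by 1.19 ± 0.25 and the coactivator gene Ncoa1 by 0.59 ± 0.10. Ncor1, a corepressor, fell by 0.34 ± 0.10 but was not called without donor 1. The search of 300-base RefSeq promoters for AGGTCA repeated after any 4 bases (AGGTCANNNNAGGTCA, both strands), the textbook response element, found none in the 14 promoters of this list that matched and none in all 11734 promoters.

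Of 16 measured transcription factors of the lineage, 9 rose and 1 fell, with a median of 0.76. Myrf, the master regulator of myelin genes, went from 5.09, 5.56 and 5.58 to 10.63, 10.60 and 10.66 (5.22 ± 0.21; limma, adjusted p = 2.19e-14). Nkx6-2 rose by 4.40 ± 0.37, Zfp536 by 3.64 ± 0.16 and Tcf7l2, a Wnt effector needed for oligodendrocyte maturation, by 2.22 ± 0.21. Sox10, which marks the lineage at all stages, rose by 0.58 ± 0.17 and had an adjusted p of 0.0557 without donor 1. Olig1, Olig2 and Nkx2-2 were not called. Nkx2-2 changed by 0.24 ± 0.25. Olig1 changed by 0.17 ± 0.08 and was called higher after a further quantile normalization (0.23, limma, adjusted p = 0.0284) and without donor 2 (0.24, 0.0358). Olig2 read 8.13, 6.66 and 7.13 in PDGF and 7.94, 7.86 and 7.84 in T3, so that the groups overlapped (0.57 ± 0.27, limma, adjusted p = 0.074). It was called higher without donor 1 (0.96, limma, adjusted p = 5.79e-04), with array weights (0.78, 0.00184) and after the quantile normalization (0.70, 0.0344). Sox17 and Zfp24 had the smallest changes of the list, 0.08 and -0.06. Another Zfp24 probe set rose by 0.6 (limma, adjusted p = 5.07e-06). The member that fell was Myt1, a zinc finger factor of the progenitor stage, from 9.93, 10.41 and 10.24 to 8.12, 8.38 and 8.41.

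**Figure D3:**
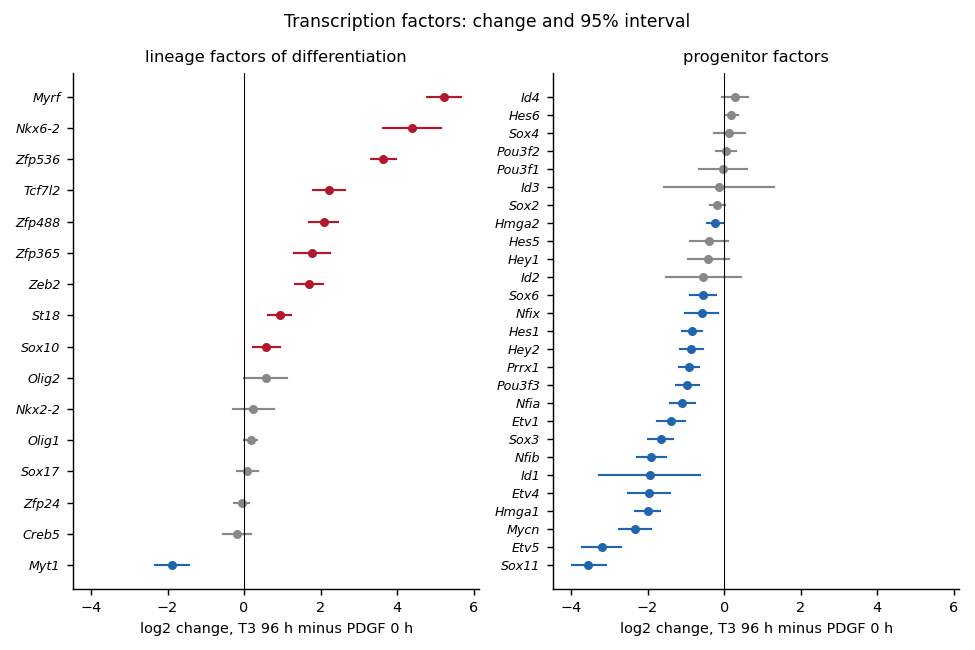
Change from PDGF 0 h to T3 96 h (horizontal axis, log2) of the measured transcription factors of differentiation (left) and of progenitors (right), with points for the limma estimate and lines for its 95% interval. Red marks genes called higher, blue genes called lower and grey genes not called; Myrf lies at 5.22, Sox11 at -3.55 and Olig1 at 0.17.

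Of 27 measured factors of the progenitor state, 17 fell, none rose and 10 were not called, with a median of -0.84. Without donor 1, or after a further quantile normalization, 2 of the 27 rose. Sox11, a factor of immature neural cells, fell from 8.98, 8.41 and 8.84 to 5.22, 5.22 and 5.16, a change of -3.55 ± 0.21. The ETS factors downstream of growth factor receptors fell as well, Etv5 by 3.20 ± 0.25 and Etv4 by 1.96 ± 0.27. Mycn fell by 2.33 ± 0.20 and the chromatin protein Hmga1 by 2.00 ± 0.15. Id1, an inhibitor of differentiation and a BMP target, read 8.88, 9.67 and 9.68 in PDGF and 6.89, 7.78 and 7.74 in T3. Its fall by 1.94 carried an SE of 0.63 (limma, adjusted p = 0.0118), and the adjusted p was 0.101 with no donor block, 0.0856 without donor 2 and 0.0764 without donor 3. Pou3f1 and Pou3f2 gave the smallest changes, -0.03 and 0.05.

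Surface and matrix genes by which OPCs are recognized changed about as often as all genes: of 26 measured, 8 rose (30.8%), 9 fell (34.6%) and 9 were not called, and the median was -0.16. Among those that fell was Pdgfra, at 12.68, 12.77 and 12.77 in PDGF and 11.11, 11.37 and 11.48 in T3. Its change of -1.43 ± 0.14 left the receptor's signal above the table's median at 96 h. Cspg4, the NG2 proteoglycan, fell from 8.51, 9.24 and 8.93 to 6.32, 7.32 and 7.31, and Rlbp1, a retinoid-binding protein enriched in OPCs, fell by 2.71 ± 0.25. In the other direction, Fgfr2, a fibroblast growth factor receptor, rose from 6.39, 7.02 and 7.04 to 11.26, 11.32 and 11.11. Tnr, a matrix glycoprotein, rose by 4.05 ± 0.31 and the adhesion molecule Ncam1 by 2.33 ± 0.10. The proteoglycans Vcan and Bcan rose by 1.42 ± 0.22 and 0.75 ± 0.17 on their brightest probe sets. Other Vcan probe sets ran from -0.13 to 1.39, and the other Bcan probe set was not called (-0.08). In these bulk arrays fewer cells of a kind and less RNA per cell cannot be told apart.

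Growth factor feedback genes, most of which are induced by receptor signalling to ERK, changed in both directions. Of 25 measured, 12 fell (48.0%, beside 31.7% of all genes) and 7 rose (28.0%, near the 26.0% of all genes). The other 6 were not called, and the median was -0.20. Egr2 fell from 8.93, 9.18 and 8.85 to 4.44, 5.58 and 5.24, and Egr1 from 12.12, 12.17 and 12.17 to 8.07, 10.47 and 9.26. The Sprouty genes, inhibitors of receptor signalling, fell by 2.92 ± 0.20 (Spry1) and 2.51 ± 0.19 (Spry4), and Myc fell by 2.54 ± 0.21. Among those that rose were Jun, Fos and Atf3, genes for AP-1 and related factors, while Fosl2, another AP-1 gene, was not called (0.02). Jun rose from 8.74, 8.98 and 9.11 to 10.53, 10.35 and 10.33, Fos rose by 0.89 ± 0.17 and Atf3 by 1.75 ± 0.27, and the phosphatase gene Dusp1 rose by 1.33 ± 0.15. Errfi1 rose by 0.62 ± 0.10. Fosb rose by 0.37 ± 0.09 and was not called without donor 2, and Jund rose by 0.60 ± 0.15 with an adjusted p of 0.0508 with no donor block. Egr1 and Jun, both immediate early genes, had opposite signs at 96 h.

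Genes of cell division fell furthest. All 37 measured mitosis genes (of 39 listed) fell, each by at least 2-fold, with a median change of -4.47 and a range from -5.48 to -2.17. Their summed signal ran from 59694 to 63810 in PDGF and from 2167 to 3851 at T3 96 h. Ccna2, cyclin A2, read 10.87, 10.74 and 10.97 in PDGF and 4.25, 6.05 and 5.82 in T3, a change of -5.48 ± 0.31 (limma, adjusted p = 2.32e-12). Mki67, whose protein Ki-67 marks cycling cells, went from 10.85, 11.28 and 11.17 to 4.75, 6.40 and 6.12. Cdk1, the kinase that starts mitosis, went from 11.71, 11.71 and 11.73 to 5.51, 7.38 and 6.93. In each of these 3 genes donor 1 was the lowest at T3 96 h by more than 1 log2 unit, while the PDGF values of the donors were close. The list's median change was -4.83 in donor 1, -4.09 in donor 2 and -4.29 in donor 3.

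Of 28 measured DNA replication genes, 27 fell, all 27 by at least 2-fold, with a median of -3.13. Uhrf1, which carries DNA methylation through replication, fell from 10.06, 10.40 and 10.33 to 4.0, 5.14 and 5.23. Mcm6, a subunit of the replicative helicase, fell by 4.56 ± 0.26, Gins1 by 4.56 ± 0.28 and thymidine kinase, Tk1, by 4.23 ± 0.21. Pcna, the sliding clamp, fell by only 1.29 ± 0.08. Fen1, the flap endonuclease, missed the threshold (-0.46 ± 0.21, limma, adjusted p = 0.0586), and was called lower on the 6 arrays alone (0.00595), with array weights (0.0118), with a filter on low values (0.0492) and without donor 1 (0.00407).

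Promoters of the mitosis genes, which moved together, were searched for the motifs of factors known to act on them. RefSeq promoter windows (build GRCr8, from 250 bases before the start to 50 after it) matched 31 of the 37 mitosis genes and 26 of the 28 replication genes, and were searched on both strands. The letters TTTGAA, the core of the cell cycle homology region bound by the MuvB complex, occurred in 21 of the 31 mitosis promoters (67.7%) and 2 of the 26 replication promoters (7.69%), beside 12.4% of all 11734. CCAAT, the box bound by NF-Y, occurred in 77.4% and 61.5%, beside 37.3% of all. Both together occurred in 18 mitosis promoters (58.1%) and none of the replication promoters, beside 5.05% of all. For the myelin protein genes, 17 promoters matched, of which none held TTTGAA and 8 held CCAAT (47.1%). These shares describe the letters only and carry no test. The 100 bases before the start are shown for the 4 genes with the largest falls among those that hold both motifs there, 5′ to 3′ on the gene's strand, with every match on either strand in capitals (ATTGG is CCAAT and TTCAAA is TTTGAA on the other strand).
Mki67: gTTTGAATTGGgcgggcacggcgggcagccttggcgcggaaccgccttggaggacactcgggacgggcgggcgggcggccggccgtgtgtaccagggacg
Aspm: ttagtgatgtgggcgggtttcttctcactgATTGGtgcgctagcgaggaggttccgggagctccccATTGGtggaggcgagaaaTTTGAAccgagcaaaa
Cdk1: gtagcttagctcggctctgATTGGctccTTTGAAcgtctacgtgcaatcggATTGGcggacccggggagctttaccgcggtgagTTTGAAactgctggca
Top2a: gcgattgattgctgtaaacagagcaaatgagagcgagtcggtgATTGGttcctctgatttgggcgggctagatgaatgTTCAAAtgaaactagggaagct
In GRCr8 these stretches lie at chr1:199952594-199952693 on the minus strand (Mki67), chr13:53625484-53625583 on the plus strand (Aspm), chr20:19265193-19265292 on the plus strand (Cdk1) and chr10:84473094-84473193 on the minus strand (Top2a). The Mki67 matches overlap by a base and begin 99 and 94 bases before the start, whereas in Aspm the TTTGAA match begins 16 bases before the start and CCAAT matches begin at 70 and 34. Changes at T3 96 h were -5.34 for Mki67, -5.12 for Aspm, -5.11 for Cdk1 and -4.72 for Top2a, the topoisomerase that untangles chromosomes.

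Control of entry into the cycle was mixed: 12 of 21 measured G1 cyclins, kinases and inhibitors fell (57.1%) and 5 rose (23.8%). Over all genes 31.7% fell and 26.0% rose, and the list's median was -0.67. Ccnd1, cyclin D1, fell from 12.66, 12.95 and 12.89 to 9.68, 10.59 and 10.38, a change of -2.62 ± 0.24. Ccnd2 fell by 2.90 ± 0.27, Ccne1 by 3.08 ± 0.21 and the pocket protein gene Rbl1 by 3.09 ± 0.15. The inhibitor Cdkn1c (p57) rose from 8.48, 7.88 and 7.88 to 10.65, 10.93 and 10.93, a change of 2.76 ± 0.24. Cdkn1b (p27), the inhibitor most studied in OPCs, rose by 0.44 ± 0.11 from 11.53, 11.47 and 11.52 to 12.08, 11.80 and 11.98, with no overlap. Its other probe set rose by 1.08. Rb1 and Rbl2 rose by 0.37 ± 0.11 and 0.56 ± 0.13. Ccng1 rose by 0.47 ± 0.14 and was no longer called without donor 2 or donor 3.

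All 24 genes of ribosome biogenesis fell, with a median of -1.08. Fbl, the methyltransferase fibrillarin of the nucleolus, fell from 11.48, 11.45 and 11.46 to 9.39, 9.81 and 9.87, and Nhp2 fell by 1.91 ± 0.14. All 43 ribosomal protein genes fell as well, by a median of 0.61, and 3 of them by at least 2-fold. Rpl24 went from 12.72, 12.72 and 12.79 to 11.51, 11.71 and 11.89. The smallest fall was that of Rpl41, at 0.22 ± 0.06, which was no longer called on the 6 arrays alone (adjusted p = 0.0522), after a further quantile normalization (0.341) or without donor 3 (0.0769). Between 48 and 96 h, 17 of the 24 and 36 of the 43 fell. The genes of the respiratory chain did not share this: of 75 measured, 15 rose, 15 fell and 45 were not called, with a median of -0.01, and without donor 3 9 rose and 9 fell.

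Lysosome and autophagy genes rose, 23 of 26 measured, with a median of 1.28. Ctsl, the protease cathepsin L, went from 10.14, 10.13 and 10.41 to 13.61, 13.51 and 13.68, a change of 3.37 ± 0.25. The membrane proteins Lamp1 and Lamp2 rose by 1.84 ± 0.10 and 1.91 ± 0.09, and the glycosidases Manba and Neu1 by 2.29 ± 0.21 and 2.03 ± 0.15. Between 48 and 96 h, 18 of the 26 rose and 1 fell. The member that fell was Ctss, cathepsin S, from 8.62, 10.17 and 10.18 to 7.49, 6.38 and 7.62. Ctss is best known from microglia, whose markers fell too.

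Markers of other cells moved with the comparison. Of 17 measured microglia and macrophage markers, 16 fell, none rose, and the median was -1.70. Their summed signal was 1611 to 3646 in PDGF and 676 to 855 at T3 96 h. Cd53 read 6.73, 8.19 and 8.42 in PDGF and 4.63, 4.12 and 4.91 in T3, so donor 1 started lower than the others. The median marker change was -0.79 in donor 1, -2.1 in donor 2 and -1.92 in donor 3. Aif1, which encodes Iba1, fell by 2.88 ± 0.40 on its brightest probe set, and its second probe set rose by 0.22 (limma, adjusted p = 0.0313). Of 20 neuron markers, 10 fell and 3 rose, with a median of -0.47 and a summed signal of 11979 to 13161 against 4697 to 6882. Dcx, doublecortin, fell by 1.07 ± 0.23 and Gap43, a growth cone protein that OPCs also express, by 2.55 ± 0.20. Elavl3 rose by 1.40 ± 0.11 against this majority. Gad1 rose by 1.06 ± 0.20, with an adjusted p of 0.151 with no donor block. The part of these cells in the results above was not tested.

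Of 12 astrocyte markers, 9 rose and 1 fell, with a median of 1.27 and a summed signal of 9485 to 12662 against 18680 to 24347. Gja1, connexin 43, rose from 10.73, 11.36 and 11.42 to 12.67, 12.84 and 12.92, S100b, which oligodendrocytes also express, by 1.80 ± 0.15, and Agt, angiotensinogen, by 1.88 ± 0.17. Gfap, the astrocyte filament protein, read 8.09, 9.70 and 9.66 in PDGF and 9.97, 11.08 and 10.97 in T3. It rose by 1.52 ± 0.57 (limma, adjusted p = 0.0255), but the adjusted p was 0.127 with no donor block, 0.0777 without donor 2 and 0.123 without donor 3. The glutamate transporter Slc1a3 fell by 0.42 ± 0.10. Of 14 vascular and fibroblast markers 2 rose and none fell, with a highest change of 0.34. Of 9 T cell markers 2 rose, Cd2 by 1.42 ± 0.15 and Cd5 by 0.31 ± 0.11, while Cd3d, Cd3e and Cd3g were not called. As a measure of RNA quality, the 3′ minus 5′ difference of the GAPDH control was -0.246, 0.0658 and -0.0755 in PDGF and -0.26, -0.238 and -0.22 in T3. That of beta-actin was 0.764, 1.1 and 0.903 against 1.12, 1.15 and 1.1, so the T3 arrays were as high as or higher than the highest PDGF array. Their part in the results was not tested.

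Antigen presentation and interferon genes, the subject of the study's other treatment, fell at a share near that of all genes under T3 alone but rose less often. Of 23 measured, 9 fell (39.1%, beside 31.7% of all genes) and 1 rose (4.35%, beside 26.0%). The other 13 were not called, and the median was -0.30. Psmb9, an immunoproteasome subunit, fell from 7.81, 7.65 and 8.01 to 5.73, 6.51 and 6.19, and Psme1, a proteasome activator, fell by 1.20 ± 0.13. The other Psme1 probe set was not called (0.0). Stat2, a carrier of the interferon signal, rose by 0.84 ± 0.11. The microglial markers, which include cells that present antigen, fell in the same arrays, and their part was not tested. For scale, the mean of Psmb9 was 12.95 ± 0.03 (SD, n = 3) on the T3 and interferon gamma arrays at 96 h, beside 6.14 ± 0.39 with T3 alone and 7.82 ± 0.18 in PDGF. On the same arrays Mobp averaged 10.80 ± 0.90, 13.40 ± 0.18 and 4.34 ± 0.26.

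**Figure D4:**
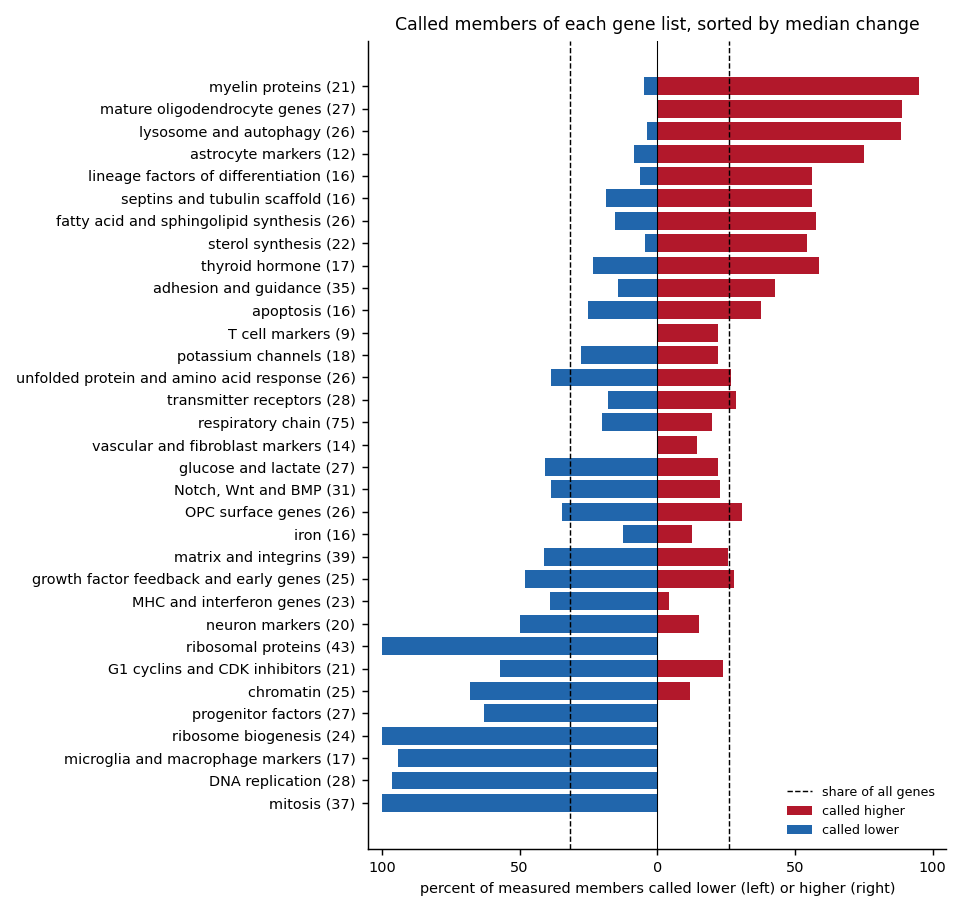
Percent of the measured members of each gene list called lower (blue, to the left) or higher (red, to the right) at T3 96 h against PDGF 0 h (horizontal axis), with the lists sorted by median change and the number measured in brackets. Dashed lines mark the shares over all genes, 26.0% higher and 31.7% lower; the ribosomal proteins, ribosome biogenesis and mitosis bars reach 100 on the left.

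Genes for signals that act on neighbouring cells and on the lineage itself included members with large changes. In the Notch, Wnt and BMP list as a whole 7 of 31 measured genes rose (22.6%) and 12 fell (38.7%), near the shares over all genes. Bmp4 rose from 6.31, 7.11 and 7.16 to 10.99, 11.89 and 11.80, a change of 4.70 ± 0.26, and Smad7, an inhibitor of that pathway, by 3.21 ± 0.15. Lef1, a Wnt effector, fell by 2.68 ± 0.22, and the Notch ligand gene Dll1 by 1.79 ± 0.11. Of 35 adhesion and guidance genes 15 rose (42.9%) and 5 fell (14.3%), beside 26.0% and 31.7% of all genes. Sema5a rose by 4.80 ± 0.28 and Sema4d by 4.33 ± 0.22, both of which inhibit axon growth, while Sema3a fell by 1.48 ± 0.17. Of 39 matrix genes 16 fell (41.0%, beside 31.7% of all genes) and 10 rose (25.6%, near the 26.0% of all genes). Among them were Tnc, tenascin C, from 6.99, 7.74 and 7.84 to 3.69, 4.37 and 4.50, and Col9a3, a chain of collagen IX, from 7.16, 7.03 and 7.21 to 10.59, 10.15 and 10.41.

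Chromatin genes fell in larger part: 17 of 25 measured fell and 3 rose, with a median of -0.74. Lmnb1, lamin B1 of the nuclear envelope, fell from 12.59, 12.68 and 12.77 to 8.08, 8.97 and 8.68, and the DNA methyltransferase Dnmt1 fell by 2.76 ± 0.16. Hdac11, a deacetylase, rose from 5.21, 5.11 and 4.90 to 9.30, 9.13 and 9.10, a change of 4.11 ± 0.22. Tet1 rose by 0.39 ± 0.09. Lmna rose by 0.65 ± 0.21 but was not called without donor 3. Ezh2, the methyltransferase of Polycomb repression, fell by 1.96 ± 0.10, although 1 of its 3 probe sets rose by 0.83. In glucose and lactate metabolism 6 of 27 rose (22.2%) and 11 fell (40.7%), beside 26.0% and 31.7% of all genes. Isoenzymes went apart: Eno2 rose from 7.74, 8.11 and 8.00 to 11.04, 10.97 and 11.13 (3.10 ± 0.17), whereas Eno1 fell by 1.07 ± 0.10. Ldha, which makes lactate, fell by 1.35 ± 0.14 and the glucose transporter Slc2a1 rose by 1.45 ± 0.17. Potassium channels changed about as often as all genes, with Kcna6 and Kcna1 up by 2.72 ± 0.16 and 2.40 ± 0.14 and Kcnd2 and Kcnd3 down by 2.15 ± 0.21 and 1.79 ± 0.23, in a list where 4 of 18 rose (22.2%) and 5 fell (27.8%). The other Kcna6 probe sets were not called (0.22 and 0.02). Among 28 transmitter receptors 8 rose (28.6%, beside 26.0% of all genes) and 5 fell (17.9%, beside 31.7%). With a filter on low values 3 rose and 2 fell, and 3 fell without donor 2. Chrm3, the muscarinic M3 receptor, fell from 8.56, 7.68 and 7.87 to 5.03, 4.94 and 4.73. Of 26 genes of the unfolded protein and amino acid response 7 rose (26.9%) and 10 fell (38.5%), near the shares over all genes. The chaperone Dnajb9 was up by 1.67 ± 0.12 and the amino acid transporter Slc7a5 down by 2.31 ± 0.31. Of 16 apoptosis genes 6 rose and 4 fell, 2 without donor 3. Of 16 iron genes 2 rose (12.5%) and 2 fell (12.5%), both under the shares over all genes. Hmox2 rose by 1.21 ± 0.09 and Slc11a2 by 0.74 ± 0.12. On the 6 arrays alone or with array weights 5 fell, and 4 rose with the weights.

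The earlier T3 arrays give the course of the largest changes. Of the 64 genes called at least 16-fold lower, all had covered at least 50% of their 96 h change at 24 h, with a median of 64.4%, after 0.85% at 8 h, and at 48 h the median was 49.9%. The ribosomal proteins had another course: the median of their group means was 13.26 in PDGF, 13.27 at 8 h, 13.14 at 24 h, 12.87 at 48 h and 12.56 at 96 h. Mki67 averaged 11.10 in PDGF, 11.03 at 8 h, 8.05 at 24 h, 8.80 at 48 h and 5.76 at 96 h. The median of the mitosis genes' group means followed the same course, 10.43, 10.54, 7.70, 8.38 and 6.11, so it was higher at 48 h than at 24 h and lowest at 96 h. All 37 mitosis genes fell between 48 and 96 h. Calcb, a calcitonin gene-related peptide and the largest fall of all genes at 5.76 ± 0.59, had covered 95.4% of its change at 24 h and 85.4% at 48 h. S100a10, a gene of the S100 family, went from 12.62, 12.59 and 12.62 in PDGF to 6.83, 7.89 and 8.05 at 96 h.

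**Figure D5:**
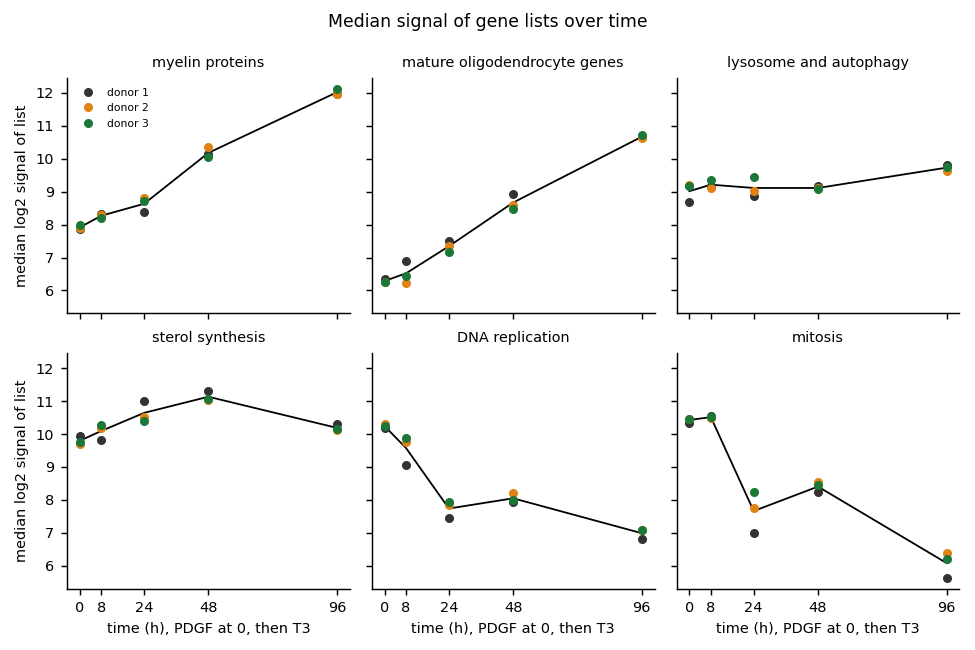
Median log2 signal (vertical axis) of 6 gene lists against time (horizontal axis, h), with PDGF at 0 and T3 after it. Points are donors and the line joins their mean; the mitosis panel is lowest at 96 h after a higher value at 48 h than at 24 h, and the sterol synthesis panel is highest at 48 h.

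Of the 77 called at least 16-fold higher, 20 had covered at least 90% of their 96 h change by 48 h and 17 under 25%. Their median share was 4.96% at 8 h, 23.5% at 24 h and 65.4% at 48 h. Myrf belonged to the early set, with means of 5.82, 9.83 and 10.63 at 8, 24 and 48 h and a change of 0.00 between 48 and 96 h (limma, adjusted p = 0.991). Cnp, Lpar1 and Cldn11 were likewise not called between 48 and 96 h. Mbp was at 12.81 by 24 h and 14.28 by 48 h, close to the highest value of the table. Its course after 48 h therefore cannot be read on this probe set. Bmp4 and Sema5a had passed their 96 h level at 24 h, with means of 11.96 and 10.47. Mobp belonged to the late set, at 4.10, 4.89 and 5.86 before it rose by 7.54 between 48 and 96 h (limma, adjusted p = 8.7e-14). Mal, at 4.40, 4.30 and 4.81, rose by 5.43 in that interval, Opalin by 5.45 and Pls1 by 5.09. Gpr37 and Kndc1, which had covered 31.8% and 30.8% of their change by 48 h, rose by 5.38 and 4.87. Of the 21 myelin protein genes, 13 rose between 48 and 96 h. The rise of Klf9 was present at 8 h (9.71) and 24 h (10.05), with a lower mean at 48 h (9.21) and a higher one at 96 h (10.56).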

How the data were processed

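RNA was hybridised to 27 Affymetrix Rat Genome arrays. The authors deposited log2 values, normalized by RMA per the labels, which also name limma; versions and parameters are not given in the sources used here. Of 31099 probe sets, 20832 had 1 symbol in the platform annotation of 2016, 436 had several and 9831 none; 20764 were matched by Entrez ID to GRCr8 names. The brightest probe set over 27 arrays stood for each of 14218 genes, 4526 of which had more than 1. Probe sets called in opposite directions occurred in 113 genes. Further named genes had another probe set that was not called, among them Fos, Gad1, Gap43, Gja1, Jund, Kcnd3, Lamp1 and Ncam1. Array medians ran from 5.95 to 6.028.

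limma 3.58.1 in R 4.3.3 was fitted to all 27 arrays with 1 mean per group and the donor as a block, because the labels name each array's donor. Deviations from group means correlated at 0.241, 0.151 and 0.358 for the PDGF and T3 96 h arrays of donors 1, 2 and 3. Simulated data had 200 changed genes among 14218 and random noise of the fitted spread. On them the fit recovered 66%, 98%, 100% and 100% of genes changed 1.5-, 2-, 4- and 8-fold, with 13 false calls. Far more genes were called in the real data, so these shares do not carry over to them.

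The members and lists were chosen with earlier results of these data known. Genes were named by rule: the 20 largest rises and falls that went the same way in 3 donors, up to 6 called members per list with the largest change, called members against their list's majority, the 2 smallest changes in lists of factors, and a fixed set of 23 markers, not all of which were measured. Opalin, Efnb3, Pde4b, Tmem63a, Fasn, Acly, Srebf2, Fosl2, Pcna, Fen1, Top2a, Rpl41, Lamp1, Cd3d, Cd3e, Cd3g, Eno1, Ldha, Atp5po and Id3 were chosen after their values were seen. The number of arrays limits precision.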

Additional observations from a re-analysis of the deposited data

Results flagged for a closer look

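Of the probe sets without a gene symbol in the annotation used, 9780 other than controls were tested apart from the named genes. Called changes numbered 3530 (36.1%, beside 57.8% of named genes), and 435 of these were at least 2-fold higher at T3 96 h than in PDGF and 473 at least 2-fold lower. Changes ran from -6.33 to 7.37 on the log2 scale. They are listed because they lie outside the comparison of named genes, and they were called less often than those. Their transcripts were not identified here.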

How the results depend on the processing

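For T3 96 h against PDGF, the counts of called genes over all genes stayed within 1.5 times of the main values in every alternative. With no replicate block they were 3327 higher and 4201 lower, and on the 6 arrays alone with the replicate block 3522 and 4440. A further quantile normalization gave 4114 and 4164, median centring 3904 and 4390, and a filter on low values 3057 and 4221 of 9764 genes. Array weights gave 4265 and 4930, and the mean of probe sets 3764 and 4399. Leaving out a donor gave 2915 to 3470 higher and 3871 to 4419 lower. For T3 96 h against 48 h, alternatives added after seeing the data gave 1679 higher and 2087 lower with no replicate block, and leaving out a donor gave 1170 to 1978 higher and 1448 to 2432 lower, the lowest without donor 3; without donor 2 the lower count was 1667. Small counts within lists moved further, as given beside them for the septins, progenitor factors, respiratory chain, transmitter receptors, apoptosis and iron genes; the matrix genes that rose went from 10 to 6 with the filter on low values, and without donor 1 the falls numbered 2 among lysosome genes and 2 among astrocyte markers, against 1 each. Vascular markers that rose went from 2 to 1 without any 1 donor, and T cell markers from 2 to 1 without donor 1 or donor 3. Of 845 genes followed, 591 were called and 507 of these kept call and direction throughout. Those that turned sign were Atp5po, at 0.03 (adjusted p = 0.741) for the mean of its probe sets against -0.19, and Id3, at 0.37 (adjusted p = 0.022) without donor 1 against -0.13; leaving out a donor moved Id3 between -0.41 and 0.37. The causes were not tested.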
